A study of Mus musculus with 4 samples.

Results

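The cells described here are the T cells of a mouse sarcoma, defined as the cells that the authors' deposited cell table assigns to the cluster "T cell". There were 579 of them among 12648 non-malignant cells and 31611 cells in all. The tumours were hind-limb sarcomas of an allograft model, of genotype Trp53flox/flox on the background strain 129/SvJae, and the rest of the genotype label is not reported here. Host mice were injected intraperitoneally every 24 h with vehicle (PBS) or with digoxin at 2 mg/kg (made up in DMSO and diluted in PBS), and tumours were taken after the 4 doses. Digoxin is a cardiac glycoside that blocks the sodium pump. Each group held 2 mice, called vehicle 1, vehicle 2, digoxin 1 and digoxin 2, and the mouse was the replicate. The labels used here do not separate the genotype of the graft from that of the host and give no sex or age. All groups shared the enzymatic dissociation of the tumour, and single-cell libraries were made with a droplet kit for 3′ ends in which transcripts are counted by unique molecular identifiers (UMIs).

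T cells recognise antigens through a receptor made of alpha and beta chains, or in a smaller lineage of gamma and delta chains, that signals through the CD3 proteins. CD8 T cells kill target cells with granzymes and perforin, and CD4 helper cells act through cytokines and contact ligands such as CD40 ligand. CD4 cells that carry the transcription factor Foxp3 are regulatory T cells, which restrain the others and are common in tumours. Activated T cells divide and take up receptors such as PD-1 (Pdcd1) and CTLA-4, which dampen their response.

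T cells numbered 183 and 110 in vehicle 1 and vehicle 2, and 155 and 131 in digoxin 1 and digoxin 2. Their share of non-malignant cells was 6.03% (vehicle 1), 3.65% (vehicle 2), 4.64% (digoxin 1) and 4.02% (digoxin 2). The means were 4.84% ± 1.69 (SD, n = 2) and 4.33% ± 0.434 (SD, n = 2), with both digoxin mice inside the range of the vehicle mice (exact permutation test, two-sided, p = 1, where the smallest p this design allows is 0.333). Median depth lay between 7244 and 8231.5 UMIs per T cell in the 4 mice, and total depth between 1203086 and 2068093 UMIs. Of 31498 cell barcodes in all, 113 occurred in more than 1 library, and 4 T cells carried such a barcode. The mice were not alike in Xist, the RNA of the inactive X chromosome: it was at 1288, 1212 and 1006 CPM (UMIs scaled to 1000000 per cell, averaged over cells) in T cells of vehicle 1, digoxin 1 and digoxin 2 and had 0 UMIs in vehicle 2. The part of this difference in the results below was not tested.

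The label was checked against T cell genes. At least 1 UMI of Cd3e, a CD3 chain, was found in 88.1% of the 579 cells, of Cd3d in 92.4% and of Trac, the alpha chain constant region, in 83.6%, while Cd8a, a chain of the CD8 co-receptor, was found in 16.1%. In macrophages, which should lack these genes and were deeper (median 16412 UMIs against 7765), the shares of Cd3e, Cd3d and Trac were 0.6%, 1.0% and 0.7%. In the 504 natural killer (NK) cells they were 1.0%, 7.7% and 9.1% (median 11690.5 UMIs). UMIs of at least 2 of Cd3e, Cd3d, Cd3g, Trac, Trbc1 and Trbc2 were found in 300 NK cells and in 544 of the 579 T cells. The cells the authors named "Unknown T cell" (35 cells) went against the label. In 33 of these 35 no UMI was found of Cd3e, Cd3d, Cd3g, Trac, Trbc1 or Trbc2, and 33 of 35 carried UMIs of 2 or more of Xcr1, Clec9a and Flt3. Xcr1, a chemokine receptor known from cross-presenting dendritic cells, stood at 348, 216, 162 and 415 CPM in this sub-cluster in vehicle 1, vehicle 2, digoxin 1 and digoxin 2, and at 11.2 CPM or less in the Treg, Th, NKT and CD8 sub-clusters. Their other leading genes, by ratio to the remaining T cells, included Plet1 (639.5 against 0.763 CPM), Naaa (1900.3 against 38.3 CPM) and Cst3 (23456 against 650.3 CPM). Results below include these 35 cells. Without them T cells were 5.77% and 3.42% of non-malignant cells in the vehicle libraries and 4.37% and 3.68% in the digoxin libraries.

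The authors' 4 other sub-clusters were Treg (175 cells), Th (167 cells), NKT (124 cells) and CD8 (78 cells). Vehicle 2 stood apart from the other 3 mice in this composition. Its T cells were 59.1% Treg (95% Wilson interval in the plot of sub-cluster shares), against 19.1% in vehicle 1, 25.8% in digoxin 1 and 26.7% in digoxin 2. Th cells were 17.3% of its T cells against 29.8% to 32.9% in the other mice, and NKT cells 10.0% against 16.8% to 28.4%. The CD8 sub-cluster held 7.27% of T cells in vehicle 2, 10.3% in digoxin 1, 16.4% in vehicle 1 and 18.3% in digoxin 2. The Unknown T cell share was 4.37%, 6.36%, 5.81% and 8.4%. In all 5 sub-clusters the ranges of the vehicle and digoxin mice overlapped.

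**Figure D1:**
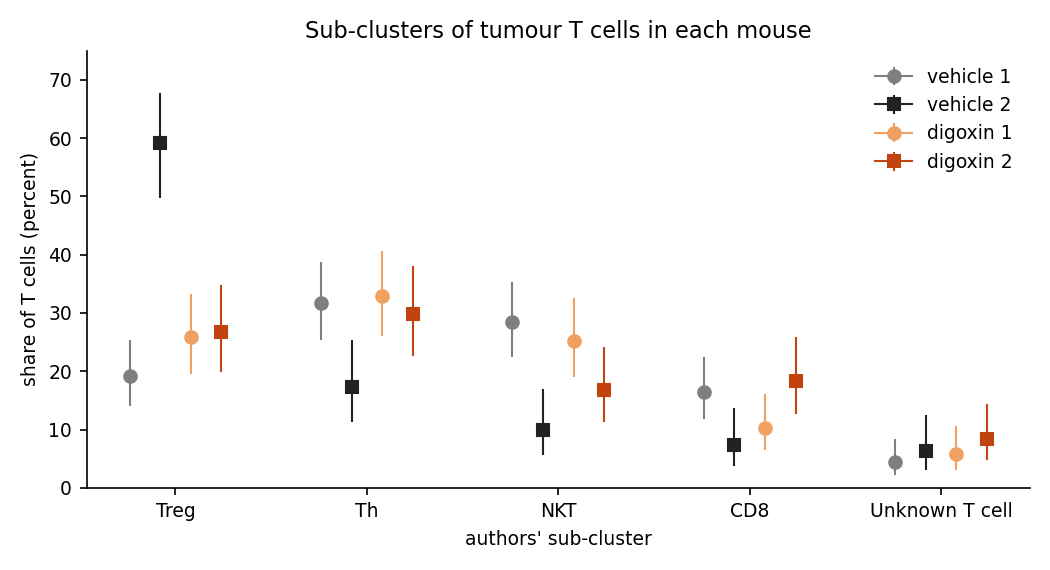
Share of T cells (percent, y axis) in each of the authors' sub-clusters (x axis), 1 point per mouse with its 95% Wilson interval, which covers counting error only. Vehicle 2 has 59.1% of its T cells in the Treg sub-cluster and the other 3 mice have 19.1% to 26.7%.

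The sub-clusters are described by the genes that led them, as a description with no test because the same genes made the clusters. Foxp3 led the Treg sub-cluster, at 263, 322, 258 and 311 CPM in vehicle 1, vehicle 2, digoxin 1 and digoxin 2 and at 12.2 CPM or less in the other sub-clusters. With it came Ctla4 (1212 to 1882 CPM over the 4 mice), Klrg1, Ikzf4 and Itgb8, an integrin chain that activates TGF-beta. The granzyme gene Gzmb was high in these cells as well, at 1018, 1584, 1900 and 1812 CPM, above its level in the Th sub-cluster in each mouse (63.2 to 510 CPM). Macrophage genes were also among the leading genes of the Treg sub-cluster, among them Mgl2, Cd14 and Fcgr2b, and 53.7% of its cells carried UMIs of 3 or more of 10 macrophage markers, against 25.6% to 29.0% in CD8, Th and NKT cells. The part of macrophage RNA or of macrophages captured with a T cell in these levels was not tested.

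The Th sub-cluster was led by Lgals7, Il17a, Tnfsf8 (CD30 ligand), Tbc1d4, Cd4 and Cd40lg. Cd4 stood at 317, 141, 383 and 244 CPM, and Cd40lg at 47.0, 15.5, 83.6 and 68.2 CPM. The chemokine receptor Cxcr6 was at 484, 489, 479 and 269 CPM there and at 40.0 CPM or less in Treg cells of all 4 mice. Trdc, the delta chain constant region, was also detected in Th cells, at 482, 440, 65.0 and 263 CPM.

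The NKT sub-cluster was led by receptors known from natural killer (NK) cells. Klra7 stood at 602 to 773 CPM in the 4 mice and at 4.57 CPM or less in the other sub-clusters, Ncr1 at 150 to 247 CPM and Xcl1, a chemokine that attracts dendritic cells, at 905 to 1481 CPM. Trdc was at 755, 754 and 946 CPM in the NKT cells of vehicle 1, digoxin 1 and digoxin 2 and had no UMI in the 11 NKT cells of vehicle 2, which allows a share of cells with a UMI of up to 27.3%. Zbtb16, the transcription factor of invariant NKT cells, was low, at 7.21 to 28.3 CPM, below its level in Th cells of the same mouse (13.8 to 36.2 CPM). Trdc is not particular to T cells in these data: 76.4% of the 504 NK cells had a Trdc UMI (median depth 11690.5 UMIs), against 37.1% of NKT cells and 0.3% of macrophages.

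The CD8 sub-cluster was led by Cd8b1 (731 to 916 CPM) and Cd8a (444 to 712 CPM), followed by Dapl1, Gzmk and Eomes. Ccl5, a chemokine made by cytotoxic cells, was at 5362, 1793, 4312 and 3489 CPM, lowest in vehicle 2, which had 8 such cells. Gzmk was at 243, 68.9, 305 and 189 CPM and Gzmb at 551 to 1353 CPM. Perforin (Prf1), the pore-forming protein of killer cells, was at 32.8 to 93.6 CPM. Among the leading genes of this sub-cluster were also genes of dividing cells, such as Ube2c, Cenpf and Cenpe.

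**Figure D2:**
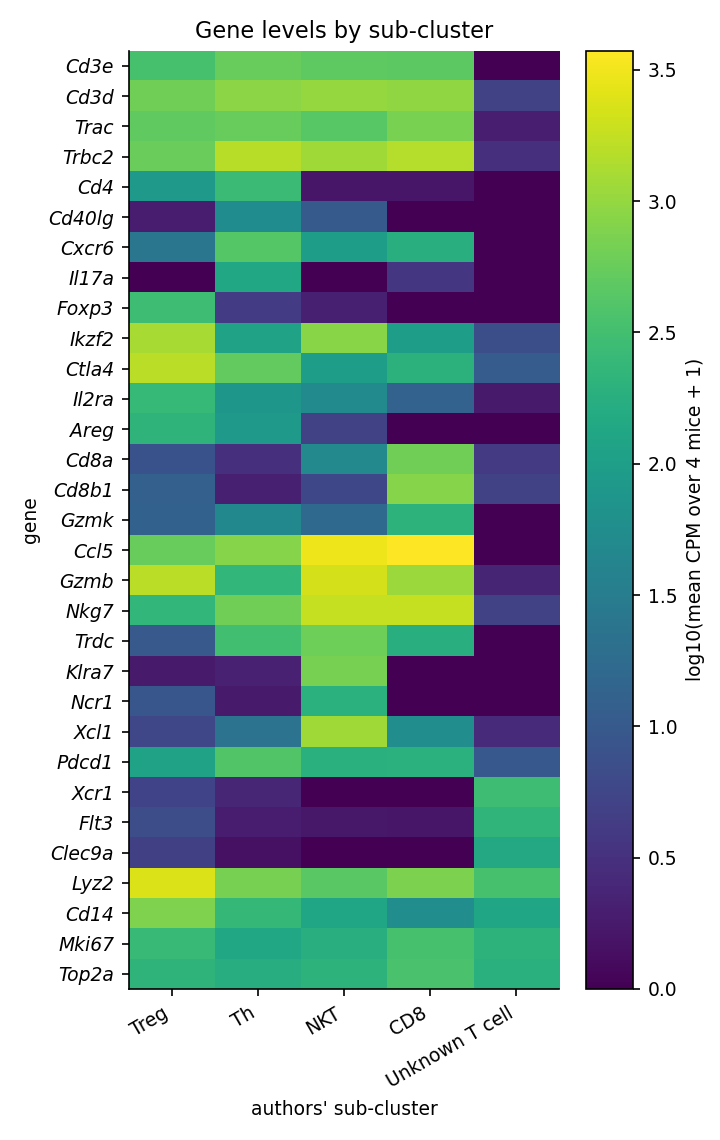
Level as log10(mean CPM over 4 mice + 1) (colour), of chosen genes (y axis) in the 5 sub-clusters (x axis). The T cell receptor genes are dark in the Unknown T cell column, where Xcr1, Flt3 and Clec9a are bright, and Lyz2 is brightest in the Treg column.

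The Cd4, Cd8 and Foxp3 positive cells were counted from single genes, after thinning every T cell to 4000 UMIs, which left out 3 cells. Cells with a UMI of Cd8a or Cd8b1 and none of Cd4 were 24.7% and 9.09% of T cells in vehicle 1 and vehicle 2, and 12.3% and 18.5% in digoxin 1 and digoxin 2 (17.0% over all 576 cells, unthinned 17.3%). Cells with a Cd4 UMI and no Cd8 UMI were 20.9% (vehicle 1), 25.5% (vehicle 2), 28.6% (digoxin 1) and 17.7% (digoxin 2) (23.1% over all, unthinned 33.0%). Foxp3 UMIs were found in 11.5% and 37.3% of T cells of the vehicle mice and in 14.9% and 12.3% of those of the digoxin mice (17.5% over all, unthinned 26.6%). Many cells were called by neither coreceptor: 59.7% of thinned and 47.5% of unthinned T cells had neither a Cd4 nor a Cd8 UMI. Of the 275 such unthinned cells, 105 were in the NKT, 79 in the Treg, 53 in the Th and 34 in the Unknown T cell sub-cluster. Unthinned, Foxp3, Cd4 and Cd8a were found in 0.2%, 1.2% and 0.3% of macrophages, at their greater depth.

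Over all thinned T cells none of these shares separated the groups, and the vehicle and digoxin mice overlapped in all 3. The digoxin mean was lower by 1.51 percentage points for Cd8, by 0.035 for Cd4 and by 10.8 for Foxp3, each with p = 1 (exact permutation test, two-sided, n = 2 and 2 mice). The Foxp3 difference rested on vehicle 2: without that mouse the digoxin mean was 2.08 points higher. The Cd4 shares separated the groups without T cells that carried 3 macrophage markers. There the digoxin mean was 5.30 points higher (exact permutation test, two-sided, p = 0.333, the smallest this design allows).

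CD8 and CD4 cells were compared within each mouse. The CD8 class held 100 cells (43, 11, 21 and 25 in vehicle 1, vehicle 2, digoxin 1 and digoxin 2) and the CD4 class 120 cells with Cd4, no Cd8 and no Foxp3 UMI (38, 12, 39 and 31). Of the 100 CD8 cells 73 were in the CD8, 18 in the NKT, 6 in the Treg and 2 in the Th sub-cluster, and 1 was an Unknown T cell. Of the 120 CD4 cells 110 were in the Th, 9 in the Treg and 1 in the NKT sub-cluster, since a cell with no Foxp3 UMI may still express Foxp3. Unlike the CD4 class, the CD8 class could hold cells with a Foxp3 UMI. The part of its NKT cells in the differences below was not tested. Of 3951 genes tested, 56 passed an adjusted p of 0.05 (1.42%; limma with the mouse as a block and Benjamini-Hochberg adjustment), 10 higher (0.253%) and 46 lower (1.16%) in CD8 cells. Differences are on the scale of log2(mean CPM + 1), and the genes of the gates were not tested. Over all genes, 9.34% were higher and 13.5% lower in CD8 cells of all 4 mice.

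Among cytotoxic effectors, 2 of 12 rose and 1 fell in CD8 cells, with a list median of 0.66 against -0.08 over all genes tested. Nkg7, a protein of the cytotoxic granule, was at 1486, 2098, 1629 and 1601 CPM in CD8 cells and at 522, 1284, 781 and 699 CPM in CD4 cells, and so higher in CD8 cells of each mouse (difference 1.12, SE 0.14, limma adjusted p = 0.00593). Ctsw, a protease of killer cells, was higher by 0.94 (SE 0.18, limma adjusted p = 0.0429). Gzmb was higher in CD8 cells of all 4 mice but just missed the threshold (difference 2.15, SE 0.43, limma adjusted p = 0.0502), and its classes were closest in vehicle 2 (1842 against 1351 CPM); without that mouse it passed (difference 2.72, limma adjusted p = 0.000348). Srgn, the proteoglycan that packs granules, fell by 0.76 (SE 0.12, limma adjusted p = 0.022).

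The gene with the largest rise of those named was Cd7, an immunoglobulin-family receptor of T and NK cells. It was at 352, 377, 251 and 150 CPM in CD8 cells and at 4.28, 0, 0 and 7.31 CPM in CD4 cells. Cd7 was also a leading gene of the NKT sub-cluster, at 621.5 CPM there against 39.2 CPM in the other T cells. Txk, a kinase of the Tec family, and Slamf7, a receptor of cytotoxic cells, also rose, by 1.97 (SE 0.26, limma adjusted p = 0.00838) and 2.26 (SE 0.43, limma adjusted p = 0.044). The ribosomal protein genes Rpl28, Rps20 and Rpl32 and the gene Ptma also rose, with differences between 0.40 and 0.59.

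Checkpoint receptors and exhaustion genes were lower in CD8 cells than in CD4 cells: 5 of 9 fell and none rose, with a median of -1.49. Pdcd1 was at 191, 94.6, 173 and 158 CPM in CD8 cells and at 489, 323, 447 and 445 CPM in CD4 cells, with no overlap (difference -1.49, SE 0.17, limma adjusted p = 0.00588). Ctla4 fell by 1.80 (SE 0.20), with 641 to 1063 CPM in CD4 cells and 127 to 373 CPM in CD8 cells. Cxcr6, Bhlhe40 and Tox, a transcription factor of exhausted T cells, fell as well (differences -1.68, -1.74 and -1.42). Cd160, an inhibitory receptor of CD8 and NK cells, went the other way in all 4 mice without passing (difference 4.53, SE 0.91, limma adjusted p = 0.0502). Cd160 too was a leading gene of the NKT sub-cluster (333 CPM against 23.2 CPM in the other T cells).

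Of 11 activation genes tested, 3 fell in CD8 cells (Hif1a, Icos and Tnfrsf4), against 1.16% of all genes tested, and none rose, with a median of -0.71. Icos and Tnfrsf4 are also in the regulatory T cell list. Of that list 4 of 9 genes tested fell (Ctla4, Icos, Tnfrsf18 and Tnfrsf4) and none rose. Hif1a, the oxygen-regulated transcription factor, was at 317, 239, 218 and 297 CPM in CD8 cells and at 972, 1003, 1148 and 1124 CPM in CD4 cells, the smallest p of this comparison (difference -2.0, SE 0.16, limma adjusted p = 0.00191). Tnfrsf18 (GITR) fell by 1.99 (SE 0.32) and Icos fell by 1.17 (SE 0.23). Tnfrsf4 (OX40) was at 734 to 903 CPM in CD4 cells and at 55.8, 275, 0 and 5.58 CPM in CD8 cells. Of the transcription factors, Rora fell by 1.90 and Maf fell by 2.49. Eea1, an endosome protein, also fell (-2.57), as did Tbc1d4 (-3.54), Nrgn (-3.22), Uhrf2 (-2.12) and the tetraspanin Cd82 (-1.54).

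The dissociation response moved in the same comparison, with 2 of 20 genes called lower (Junb and Dusp1) and a median of -0.54, and its part was not tested. Macrophage markers had a median of -1.30 with 0 of 8 called, and 28.0% of CD8 and 28.3% of CD4 cells carried 3 or more of them. Few cells stood behind vehicle 2, and the count of calls depended on single mice: it was 32 without vehicle 1, 207 without vehicle 2, 5 without digoxin 1 (Hif1a, Eea1, Ctla4, Gadd45b and Maf) and 15 without digoxin 2.

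**Figure D3:**
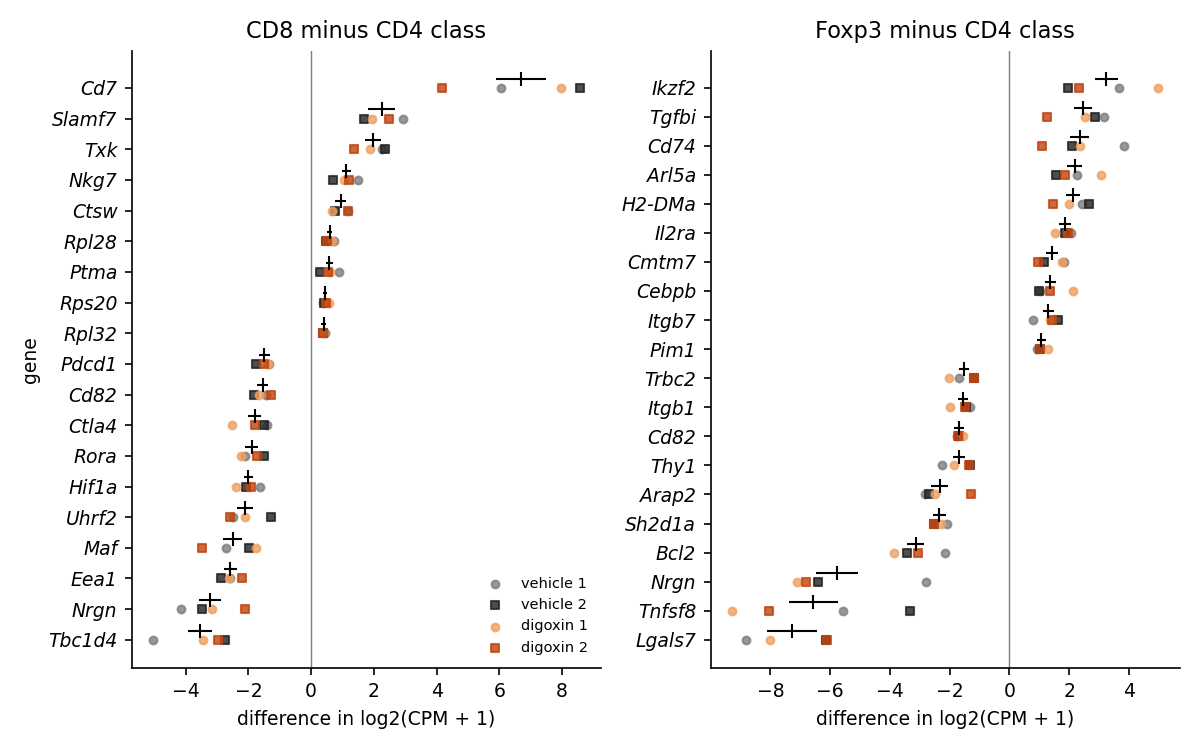
Differences in log2(CPM + 1) (x axis) for named genes (y axis) between CD8 and CD4 cells (left) and between Foxp3 positive and Foxp3 negative CD4 cells (right). Each point is 1 mouse and the black bar is the fitted difference ± SE; for each gene drawn all 4 mice lie on the same side of 0.

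Foxp3 positive cells were compared with the same 120 CD4 cells, 9 of which were in the Treg sub-cluster. The Foxp3 class held 140 cells with a Foxp3 UMI and no Cd8 UMI (30, 52, 32 and 26 in vehicle 1, vehicle 2, digoxin 1 and digoxin 2). Of 4412 genes tested, 184 passed (4.17%), 106 higher (2.4%) and 78 lower (1.77%) in Foxp3 cells. Over all genes, 15.3% were higher and 9.25% lower in Foxp3 cells of all 4 mice. The classes differed in 2 other ways: median depth was 9503 UMIs in Foxp3 cells and 6143 UMIs in CD4 cells, and 57.1% against 28.3% of cells carried 3 or more macrophage markers. The median of the 10 macrophage markers was 1.30, against 0.07 over all genes tested, and 1 of 10 passed (Lyz2, difference 1.83, SE 0.39, limma adjusted p = 0.0239). Lyz2 missed the threshold without digoxin 1 (limma adjusted p = 0.142). It differed by 0.31 without cells that carried 3 macrophage markers, but Lyz2 is itself 1 of the 10 markers that chose those cells. Without the cells that carried 3 macrophage markers, 86 genes passed, 59 of them among the 184.

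Of the regulatory T cell list, 8 of 12 genes tested rose and none fell, with a median of 1.40. The list has 21 genes, and a gene could pass the filter on low counts through the Foxp3 class alone. The count and the median are therefore a description. Il2ra, the alpha chain of the interleukin-2 receptor, was at 279, 168, 266 and 255 CPM in Foxp3 cells and at 65.9, 45.9, 91.2 and 64.5 CPM in CD4 cells (difference 1.85, SE 0.21, limma adjusted p = 0.00129). Ikzf2 (Helios) was at 1019, 1595, 1208 and 1231 CPM against 78.7, 414, 37.2 and 243 CPM (difference 3.23, SE 0.39, limma adjusted p = 0.00139). Without the cells that carried 3 macrophage markers these differences were 2.34 for Il2ra and 3.52 for Ikzf2, both still past the threshold. Ctla4 rose by 1.00 (SE 0.17), Tnfrsf9 (4-1BB) by 1.76 (SE 0.29), Izumo1r (folate receptor 4) by 1.57, Capg by 1.24, Ikzf4 by 2.01 and Klrg1 by 3.74. Ikzf4 and Klrg1 did not pass the filter in the CD8 against CD4 comparison, which used the same CD4 cells.

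Of the cytotoxic list the granzyme gene Gzmb was the only member of 11 that rose (difference 2.16, SE 0.42, limma adjusted p = 0.0135). In vehicle 2 its levels were 1364 and 1351 CPM. The call was lost without digoxin 1 (limma adjusted p = 0.0868) and without cycling cells (limma adjusted p = 0.133). The list's median was -1.72 and 6 of 11 fell. Nkg7 fell by 1.77 (SE 0.24), and Ctsw (-1.65) and the protease inhibitors Serpinb9 (-2.20) and Serpinb6b (-2.28) fell too. Ifng, the interferon of helper and killer cells, was at 121, 94.3, 129 and 133 CPM in CD4 cells and at 1.04, 25.0, 12.1 and 26.9 CPM in Foxp3 cells. Fasl was at 39.2 to 85.3 CPM in CD4 cells and at 7.42 CPM or less in Foxp3 cells.

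Checkpoint receptors split: Ctla4 rose and 5 of 11 fell, with a median of -1.11. Pdcd1 (-1.98, SE 0.31), Lag3 (-2.40, SE 0.33), Bhlhe40 (-1.68, SE 0.24), Rgs16 (-1.62) and Cxcr6 fell. Cxcr6 was at 285 to 590 CPM in CD4 cells and at 12.5, 31.9, 0 and 44.9 CPM in Foxp3 cells. Of the naive and memory list, Cd27, a costimulatory receptor, rose by 0.87 (SE 0.19, limma adjusted p = 0.0242) and Tcf7 fell. Tcf7, the transcription factor TCF1, was at 82.5 to 158 CPM in CD4 cells and at 35.2, 3.45, 1.30 and 0 CPM in Foxp3 cells.

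Of the activation list 3 of 12 genes rose in Foxp3 cells, against 2.4% of all genes tested, and none fell. They were Nr4a1 (difference 1.03), Irf8 (1.63) and Tnfrsf9 (1.76), which is also in the regulatory T cell list. With 3 or more macrophage markers in 57.1% of Foxp3 and 28.3% of CD4 cells, the part of macrophage RNA in these values was not tested. Of the dissociation response 4 of 19 genes also rose (Fos by 1.29, Egr1 by 1.06 and Atf3 by 1.39, with Zfp36), and its part in the comparison was not tested.

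Of the T cell receptor and identity genes, 8 of 20 fell in Foxp3 cells, against 1.77% of all genes tested, and none rose, with a median of -0.65. More Foxp3 than CD4 cells carried 3 or more macrophage markers (57.1% against 28.3%), and the part of macrophage RNA in these lower values was not tested. Trbc2 was at 535, 708, 375 and 717 CPM against 1708, 1613, 1534 and 1617 CPM (difference -1.52, SE 0.16, limma adjusted p = 0.00115), and Thy1 fell by 1.70. The CD4 class required a Cd4 UMI and the Foxp3 class did not. With a Cd4 UMI required in both classes, a choice made after the data were seen that left 14, 33, 14 and 10 Foxp3 cells, 62 genes passed and all were among the 184. In that comparison Trbc2 differed by -1.43 (limma adjusted p = 0.020), and Lyz2 by 0.69 (limma adjusted p = 0.744).

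Of the other named genes, Bcl2, which blocks cell death, fell by 3.13 (SE 0.28), with 240 to 455 CPM in CD4 cells and 21.3 to 59.7 CPM in Foxp3 cells. Sh2d1a (SAP, the adaptor of SLAM receptors) fell by 2.36, and Itgb1 (-1.56), Cd82 (-1.68) and Arap2 (-2.34) fell as well. Lgals7, Nrgn and Tnfsf8 were at 67.3 CPM or more in CD4 cells of each mouse and fell to 51.5 CPM or less in Foxp3 cells. Pim1, Cmtm7, Itgb7, Arl5a and Cebpb rose by 1.06 to 2.18. Genes of antigen presentation by MHC class II, Cd74 and H2-DMa, rose by 2.35 (SE 0.31) and 2.12 (SE 0.23). Tgfbi, a secreted matrix protein also made by macrophages, rose by 2.46. Without the cells that carried 3 macrophage markers Cd74 remained higher by 2.30 (limma adjusted p = 0.026), while H2-DMa and Tgfbi did not pass the filter on low counts. Without cycling cells Cd74 missed the threshold (limma adjusted p = 0.120).

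Activation and memory genes were read over all T cells. Cd69, an early activation and residency marker, stood at 228 and 179 CPM in the vehicle mice and 202 and 216 CPM in the digoxin mice. Nr4a1, which follows receptor signalling, was at 171, 260, 200 and 215 CPM and Icos at 456, 758, 567 and 469 CPM, both highest in vehicle 2. Ccr7, the lymph node homing receptor, was at 44.8 to 127 CPM in CD8, 19.5 to 215 CPM in Th, 3.85 to 163 CPM in Treg and 0 to 39.8 CPM in NKT cells. Il7r, the receptor that supports resting T cells, was at 205 to 444 CPM in Treg, 255 to 430 CPM in Th, 162 to 238 CPM in CD8 and 68.4 to 181 CPM in NKT cells. Tigit and Havcr2 (TIM-3) were low in T cells, with Tigit at 26.3 CPM or less in each sub-cluster and mouse. Havcr2 was at 65.5 CPM or less in the 4 sub-clusters with T cell receptor RNA and at 112 to 148 CPM in the Unknown T cell sub-cluster.

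RNA of interleukin-17A, a cytokine of helper and gamma-delta T cells, was found in few cells. UMIs of Il17a were found in 11 cells, 8 in vehicle 1 and 3 in digoxin 1, and in none of the 110 and 131 T cells of vehicle 2 and digoxin 2, which allows shares of up to 2.73% and 2.29%. Of these cells 10 were in the Th sub-cluster, 10 had a Cd3e UMI, 9 Cxcr6, 7 Tcrg-C1 and 6 Trdc, while 3 had a Cd4 UMI. Amphiregulin (Areg), a growth factor of regulatory T cells in tissue repair, was found in 20, 16, 19 and 7 cells, in the Treg and Th sub-clusters above all. Its level over all T cells was 159 and 119 CPM in the vehicle mice and 65.2 and 17.3 CPM in the digoxin mice, with no overlap. The digoxin difference was -1.99 (SE 0.47) and did not pass (limma adjusted p = 0.872). Leaving out a mouse puts a single mouse in its arm, which is assumed to vary like the others: limma adjusted p was then 0.0038 without digoxin 1, 0.999 without digoxin 2, and 1.58e-07 and 3.41e-12 without vehicle 1 and vehicle 2, where the spread came wholly from the trend over genes. In Treg cells alone Areg was at 434, 199, 182 and 31.0 CPM. In vehicle 1 a single cell held 48 of its 249 UMIs.

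Cycling cells were those with UMIs of 3 or more of 8 markers (Mki67, Top2a, Birc5, Cdk1, Ccnb2, Nusap1, Tpx2 and Cenpf) after thinning to 4000 UMIs. Cycling T cells were 20.9% (38 of 182) and 20.9% (23 of 110) in vehicle 1 and vehicle 2, and in digoxin 1 and digoxin 2 10.4% (16 of 154) and 16.2% (21 of 130), so that each digoxin value lay under each vehicle value. The difference of the means was -7.62 percentage points (exact permutation test, two-sided, p = 0.333, the smallest this design allows, n = 2 and 2 mice). Unthinned, the shares were 29.0%, 27.3%, 13.5% and 22.9%. Cells with a UMI of Mki67, the proliferation antigen Ki-67, were 26.4%, 35.5%, 19.5% and 18.5%, again lower in both digoxin mice. Unthinned, 33.3% of T cells had an Mki67 UMI, against 38.3% of macrophages (median 16412 UMIs) and 14.3% of dendritic cells (median 12407 UMIs), and the part of free RNA in these shares was not tested.

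Of the 4 sub-clusters with T cell receptor RNA, Th and NKT cells had lower shares in both digoxin mice (exact permutation p = 0.333 each); for Th cells the groups overlapped after thinning to 3000 or 6000 UMIs. Cycling Th cells were 13.8% in vehicle 1 and 26.3% in vehicle 2, against 7.84% in digoxin 1 and 2.56% in digoxin 2. Cycling NKT cells were 23.1% and 27.3% against 7.69% and 4.55%. In the CD8 sub-cluster 9 of 30 and 2 of 8 cells were cycling in the vehicle libraries, and 4 of 16 and 6 of 24 in the digoxin libraries. In Treg cells the counts were 8 of 34 and 13 of 65 against 3 of 39 and 9 of 34, with overlap between the groups. After thinning to 6000 UMIs the Treg shares did not overlap, at 8 of 28 and 12 of 40 cells against 3 of 28 and 7 of 27 (exact permutation p = 0.333). These shares rest on as few as 8 cells in a mouse, and differences between the sub-clusters were not tested. Averaging the 4 sub-clusters with T cell receptor RNA with equal weight, which was not planned, gave a difference of -10.3 points (exact permutation p = 0.333, the smallest that 2 against 2 mice allow). In the Unknown T cell sub-cluster, which this average leaves out, the share was higher in the digoxin mice: 1 of 8 and 0 of 7 cells were cycling in the vehicle libraries, against 2 of 9 and 4 of 11 in the digoxin libraries. Unthinned, the groups overlapped in this sub-cluster, at 2 of 8 and 0 of 7 against 2 of 9 and 5 of 11. The part of sub-cluster composition in the cycling difference was not tested.

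Cells with a Cd8 UMI and no Cd4 UMI cycled at 28.9%, 10.0%, 21.1% and 29.2% in vehicle 1, vehicle 2, digoxin 1 and digoxin 2. Those with a Cd4 UMI and no Cd8 UMI cycled at 10.5%, 10.7%, 9.09% and 8.7%. Unlike the CD4 class of the gene comparisons, the latter could hold cells with a Foxp3 UMI. The CD8 share was higher in 3 of 4 mice, by 12.5 percentage points ± 9.54 (SD, n = 4; exact permutation of signs, two-sided, p = 0.25, smallest possible 0.125). Vehicle 2, the exception, had 10 CD8 cells. Unthinned, the difference was 4.97 points (exact permutation of signs, two-sided, p = 0.625).

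**Figure D4:**
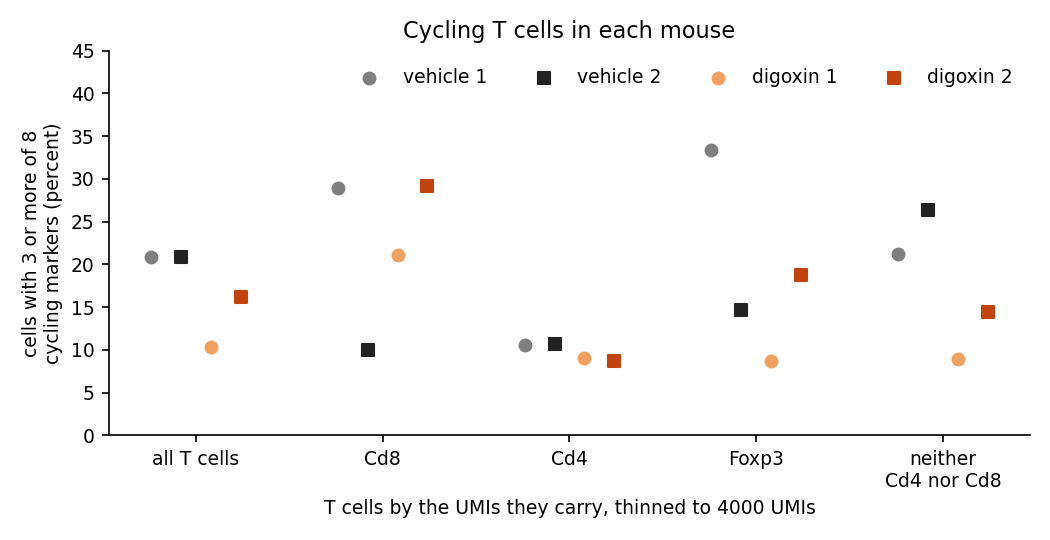
Share of cells with 3 or more of 8 cycling markers (percent, y axis) in all T cells and in T cells with Cd8, Cd4, Foxp3 or neither coreceptor UMI (x axis), 1 point per mouse, after thinning to 4000 UMIs. Over all T cells the digoxin mice are at 10.4% and 16.2% and both vehicle mice at 20.9%.

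The digoxin effect on gene levels was fitted over all T cells, and no gene of 8930 passed an adjusted p of 0.05 (0%; limma, Benjamini-Hochberg). At an unadjusted p of 0.05 there were 382 genes (4.28%, of which 2.28% of all genes were lower), and edgeR and DESeq2 on the recovered UMIs also called 0 genes, with 409 and 89 at that unadjusted level. The groups did not overlap for 1699 genes (19%) that were lower and 1274 genes (14.3%) that were higher in the digoxin mice.

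Genes of G2 phase and mitosis had lower values in T cells of the digoxin mice, and none passed the test. Of 51 genes tested, 50 had a value below 0, 17 an unadjusted p under 0.05, and 36 were lower with no overlap of the groups, against the 19% of all genes. Their median was -0.49 against -0.02 over all genes tested. These genes are expressed in the same cells and do not vary independently. With the sub-clusters weighted equally, an alternative that was not planned, 5 of 51 were called lower, against 7 of 8679 genes in all. With the replicate block 5 were called lower, against 19 of 8930. That fit had 1 residual degree of freedom and took its spread wholly from the trend over genes. Mki67 was at 282 and 259 CPM in vehicle libraries (270 ± 16.5, SD, n = 2) and at 143 and 160 CPM in digoxin libraries (152 ± 11.6, SD, n = 2). The groups did not overlap, and the difference was -0.83 (SE 0.15, limma adjusted p = 0.596). Mki67 passed with the sub-clusters weighted equally (difference -1.13, limma adjusted p = 0.00049). In that unplanned alternative the 8 CD8 and the 11 NKT cells of vehicle 2 weighed as much as its 65 Treg cells. It also passed without vehicle 1 or vehicle 2 (limma adjusted p = 0.00609 and 0.000784), but each of these fits left 1 vehicle mouse, assumed to vary like the others, and took its spread wholly from the trend over genes. Without digoxin 1 or digoxin 2 it did not pass (limma adjusted p = 0.998 and 0.999). Hmgb2, a chromatin protein of dividing cells, was at 1097 and 1041 CPM against 635 and 726 CPM (difference -0.65, SE 0.12, limma adjusted p = 0.596). Ccnb2, a mitotic cyclin, was at 41.0 and 48.2 CPM against 21.4 and 15.6 CPM, and Cenpa, the histone of centromeres, at 97.7 and 95.6 CPM against 54.9 and 50.4 CPM. Cenpf and Nusap1 differed by -1.12 and -0.88. Top2a, the topoisomerase of replicating cells, overlapped between the groups, at 261 and 196 CPM against 159 and 207 CPM.

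S phase genes had a median of -0.02 and 7 of 42 were lower with no overlap, against the same 19%. Their median moved with the setting: it was -0.16 with edgeR and -0.14 with DESeq2, where 38 and 37 of 42 had values below 0, and -0.21 with the sub-clusters weighted equally. It was 0.11 without vehicle 1, 0.09 without digoxin 1, -0.23 without vehicle 2 and -0.16 without digoxin 2. The G2 and mitosis median stayed below that of all genes in each alternative run, from -0.71 with the sub-clusters weighted equally to -0.35 without digoxin 1 or with a pseudocount of 10 CPM. It was -0.59 without the Unknown T cell cells and -0.63 without cells that carried 3 macrophage markers.

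**Figure D5:**
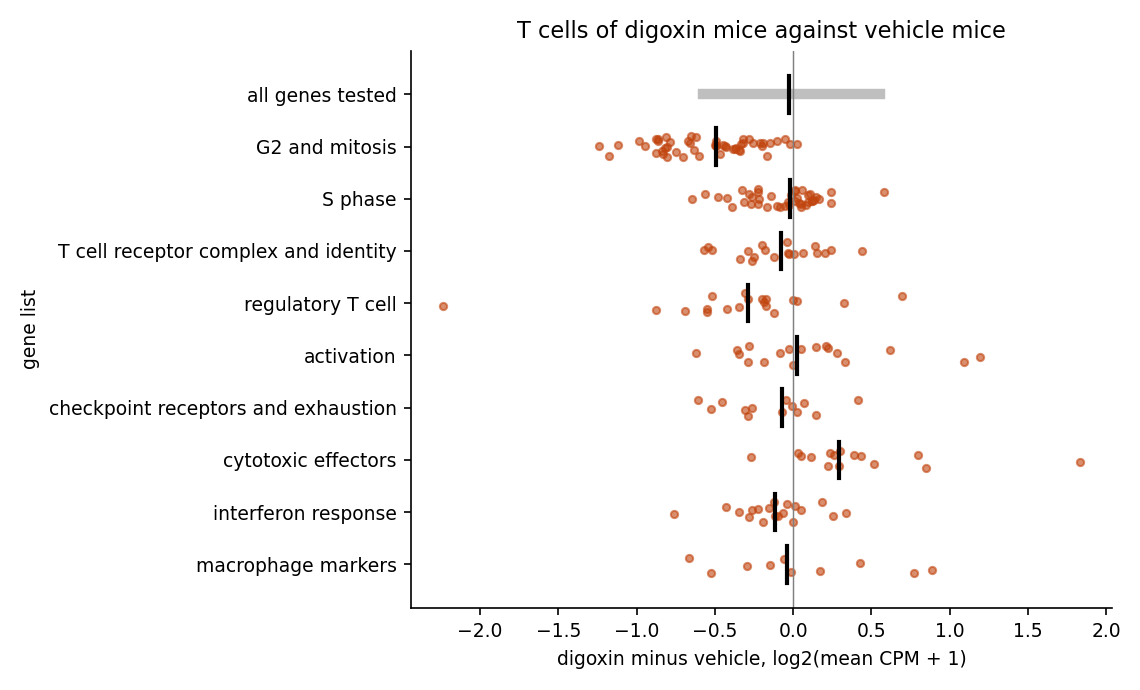
Difference between digoxin and vehicle T cells in log2(mean CPM + 1) (x axis), 1 point per gene tested of each gene list (y axis), with black lines at the medians and, for all genes tested, a grey bar from the 5th to the 95th percentile. The G2 and mitosis list has a median of -0.49, and the S phase list and all genes lie at -0.02.

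The other genes with the smallest p and no overlap were higher Cxcl9, Plaur, Cxcl1, Il1b and Tgm2, and lower Tmem176a, Tmem176b and Ppp1r35. Il1b, an inflammatory cytokine of myeloid cells, was at 180, 316, 497 and 528 CPM in vehicle 1, vehicle 2, digoxin 1 and digoxin 2 (difference 1.10, SE 0.23, limma adjusted p = 0.653). Without T cells that carried 3 macrophage markers its difference was -0.31. Cxcl9, a chemokine that draws T cells and was also a leading gene of the Unknown T cell sub-cluster, was at 14.3 and 19.8 CPM against 51.6 and 207 CPM, and its difference of 2.55 was 3.63 without that sub-cluster. Plaur, Cxcl1 and Tgm2 differed by 0.85, 0.91 and 1.22. Tmem176a and Tmem176b, paired membrane proteins of myeloid cells and some T cells, differed by -0.99 and -0.93, and Tmem176a by 0.01 without the cells that carried 3 macrophage markers. Cells with 3 macrophage markers were 24.6%, 37.3%, 42.6% and 52.7% of T cells in vehicle 1, vehicle 2, digoxin 1 and digoxin 2. Summed over the 10 macrophage markers the level was 1115 and 4250 CPM against 2303 and 2618 CPM, with the highest value in vehicle 2. Neutrophil markers were low and higher in both digoxin mice: S100a9 was at 2.81 and 6.14 CPM against 14.1 and 64.2 CPM. The part of these other cells' RNA in the differences was not tested beyond the values given.

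Of the 19 regulatory T cell genes tested 1 was lower with no overlap of the groups and none was higher, with a median of -0.29. That median was 0.00795 with the sub-clusters weighted equally, where 9 values were below 0 and 10 above, and ran from -0.93 without vehicle 1 to 0.25 without vehicle 2. Foxp3 in the Treg sub-cluster was at 263 and 322 CPM against 258 and 311 CPM. Checkpoint genes had a median of -0.07, activation genes 0.02 and interferon response genes -0.12, and each changed sign in at least 1 alternative. With the sub-clusters weighted equally these medians were -0.23, 0.08 and 0.08. The checkpoint median ran from -0.38 without digoxin 1 to 0.02 without digoxin 2, the activation median from -0.07 without vehicle 1 to 0.17 without digoxin 2, and the interferon response median from -0.42 without vehicle 1 to 0.27 without vehicle 2. Of 15 cytotoxic effectors 4 were higher and 1 lower with no overlap, against 14.3% and 19% of all genes, with a median of 0.29. That median was 0.16 with the sub-clusters weighted equally, and ran from 0.12 without vehicle 2 or digoxin 1 to 0.56 without vehicle 1. Gzma was at 63.7 and 17.2 CPM against 144 and 102 CPM (difference 1.83, SE 0.47, limma adjusted p = 0.898). Serpinb9, which protects killer cells from their own granzyme, was at 165 and 117 CPM against 255 and 229 CPM (difference 0.80, SE 0.19). Of the sodium pump's beta and FXYD subunits, 3 were tested and each overlapped between the groups: Fxyd5 was at 915 and 1090.5 CPM against 986 and 872 CPM, Atp1b3 at 187 and 226 CPM against 203 and 255 CPM, and Atp1b1 at 31.3 and 15.6 CPM against 30.5 and 15.6 CPM. Of 20 genes of the T cell receptor and identity list 9 were lower and 1 higher with no overlap, against 19% and 14.3% of all genes, with a median of -0.08. Without cells that carried 3 macrophage markers 10 of them had values below 0 and 10 above, with a median of -0.02.

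Interferon response genes varied between mice of 1 group more than between groups. The summed level of the list was 3649 CPM in vehicle 1, 5849 CPM in vehicle 2, 3293 CPM in digoxin 1 and 5389 CPM in digoxin 2. Irf7, a regulator of the interferon response, was at 100, 263, 127 and 295 CPM in the same order, high in vehicle 2 and digoxin 2.

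Within the Treg sub-cluster alone, a comparison added after the data were seen, 2 of 6400 genes passed. Clec10a, a lectin of myeloid cells, was at 14.5 and 10.1 CPM in vehicle mice and at 131 and 96.2 CPM in digoxin mice (difference 3.11, SE 0.41, limma adjusted p = 0.0142). Cxcl10, an interferon-induced chemokine, was at 357 and 470 CPM against 143 and 116 CPM (difference -1.66, SE 0.25, limma adjusted p = 0.0312). Cells with 3 macrophage markers were 42.9%, 43.1%, 65.0% and 71.4% of Treg cells in vehicle 1, vehicle 2, digoxin 1 and digoxin 2, and their part in these differences was not tested.

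The digoxin effect in T cells was set against that in the 504 NK cells of the same mice, in a model with a term for the difference between the cell types and a block for the mouse. No gene of 9793 passed (0%; limma), 346 had an unadjusted p under 0.05 (3.53%, with 2.4% of all genes lower), and edgeR and DESeq2 each called 1 gene, Thbs1. Thbs1 was at 43.8 and 91.3 CPM in T cells of vehicle mice and 136 and 133 CPM in those of digoxin mice, and at 6.07 and 7.99 against 42.9 and 58.8 CPM in NK cells (limma difference -1.61, SE 0.34, adjusted p = 0.734). The smallest p belonged to Gzmc, a granzyme gene, at 15.1 to 37.7 CPM in T cells and at 1769 and 1619 against 958 and 1093 CPM in NK cells (limma difference 1.57, SE 0.23, adjusted p = 0.189). The digoxin difference of Il1b was 1.10 in T cells and 2.99 in NK cells. Macrophage markers moved in the same comparison: their median difference between the cell types was -0.65, with all 10 below 0 and 3 at an unadjusted p under 0.05. NK cells with 3 macrophage markers were 21.5%, 40.6%, 32.7% and 57.4% in vehicle 1, vehicle 2, digoxin 1 and digoxin 2, and their part in the comparison was not tested. For Mki67 the digoxin difference was -0.83 in T cells and -0.24 in NK cells, where the groups overlapped at 190 and 271 against 206 and 179 CPM, and the difference between the cell types was -0.59 (SE 0.23, limma adjusted p = 0.999). The G2 and mitosis list had a median difference between the cell types of -0.44, against -0.06 over all genes, with 0 of 52 genes called and 11 at an unadjusted p under 0.05.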

How the data were processed

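Single-cell RNA libraries of 4 tumours were measured. Cell Ranger 3.0.2, Seurat 3.0.2 and the build mm10 are named in the submitters' processing notes, with no role given. The values deposited by the authors are the natural log of 1 plus UMIs per 10000 UMIs of a cell; the deposited UMI count of each cell turned 100% of values above 0 back into whole UMIs (tolerance 0.01), and the sums of these UMIs equalled that count in each of the 12648 non-malignant cells. Cell types, sub-clusters and the assignment of 1 library to vehicle 2 are the authors' deposited annotation.

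UMIs were scaled to CPM per cell and averaged per mouse and class. limma 3.58.1 (R 4.3.3) fitted log2(mean CPM + 1) with an intensity trend; genes were filtered with edgeR's filterByExpr and adjusted by Benjamini-Hochberg at 0.05. The filter was given the groups or classes compared, so a gene could pass it through the group in which it was high. The fits were also run on simulated counts drawn from the same mean profile for every mouse. That run does not cover the differences between these mice, and no result is drawn from it. edgeR 4.0.16 and DESeq2 1.42.0 on summed UMIs, a pseudocount of 10 CPM, no filter, each mouse left out and other choices of cells were alternatives. Equal weights for the sub-clusters, Treg cells alone, a Cd4 UMI in both classes, and leaving out Unknown T cell or cycling cells were not planned. Doublets were marked with Scrublet (scanpy 1.11.5; 4.57% of 31611 cells and 11 of 579 T cells) and kept. Genes named per comparison were the 10 called genes per direction with the smallest p, a mean of 20 CPM or more and the same sign in each mouse, or 5 where none passed, plus the highest and called list members; Thbs1, Clec10a, Cxcl10, Irf7, Gadd45b, Areg, Il17a, Xist and sub-cluster genes were chosen after their values were seen. Genes that the rule names but the text leaves out are not reported here. Members, lists and tests were chosen with earlier results of these data known. Intervals cover counting error only. Exact permutation p-values rest on the mice alone. The limma p-values combine the spread between mice with a trend over genes, with 2 residual and 7.62 prior degrees of freedom in the main digoxin fit. With a mouse block the spread is that of differences within mice. Shares of the 2 groups cannot pass 0.05. 0 value columns belonged to no sample.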

Additional observations from a re-analysis of the deposited data

How the results depend on the processing

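The correlation of deviations between mice of the same replicate number was 0.0608. With 2 mice per group this is 1 value, equal in both pairs by construction. It cannot decide whether the replicate number marks pairs of mice. With the replicate block, 57 genes passed for digoxin in T cells, led by Xist (difference 4.94), against 0 without it; with 1 residual degree of freedom the fit took its spread wholly from the trend. For the within-mouse comparisons, leaving out the mouse block gave 89 calls for CD8 against CD4 and 186 for Foxp3. Digoxin calls numbered 24 with the sub-clusters weighted equally, 2 in Treg cells alone, and 0 to 198 with a mouse left out (198 without vehicle 1, 75 without vehicle 2, 2 without digoxin 1). For T against NK cells, edgeR and DESeq2 called 1 gene each, and leaving out a mouse gave 1 to 276. CD8 against CD4 gave 56 calls, 90 with a pseudocount of 10 CPM, 81 with edgeR, and 5 to 207 with a mouse left out. Foxp3 cells gave 184 calls, 117 with DESeq2, 86 without macrophage-marker cells, 67 without cycling cells, 62 with Cd4 required, and 75 to 201 with a mouse left out. Without macrophage-marker cells the digoxin differences of Il1b and Tmem176a became -0.31 and 0.0124. The digoxin difference of the T cell share (-0.513 points) was 0.125 of all cells, 0.962 of all cells but macrophages, and -1.70 to 0.679 with a mouse left out. That of the Cd8 share was 0.220 at 3000 UMIs and -9.33 to 6.31 with a mouse left out. That of the Cd4 share was 5.30 without macrophage-marker cells, 0.325 without Unknown T cell cells and -5.47 to 5.4 with a mouse left out. The Foxp3 share ranged from -23.7 to 2.08. The cause of these changes was not tested. The cycling share difference kept its sign in all alternatives run, from -11.9 to -4.74 points. Depth limits the Cd4, Cd8 and Foxp3 shares, since a cell with no UMI may still express the gene.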
